A study of Mus musculus with 11 samples.

Results

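Promoters that were more open in basal than in luminal mammary epithelial cells, in ducts and in terminal end buds (TEBs) alike, are described here from an ATAC-seq data set of the pubertal mouse gland. A promoter peak was a merged ATAC-seq peak that lay no more than 500 bp from the start of transcription (TSS) of any protein-coding gene on the mm10 genome. Counts were given per 1000000 counts of the library (CPM) and averaged over each group. A promoter peak was taken when the basal mean was at least 2 times the luminal mean in ducts and again in TEBs, and when both basal means were 3 CPM or more. Of 16630 promoter peaks, among 153396 peaks in all, 1248 (7.5%) met the rule, and they lay at 1151 genes. The same rule turned round gave 496 luminal-biased promoter peaks. The members were thus chosen by the group mean CPM of basal and luminal libraries, and the basal to luminal difference is given below as a description with no test. Testing was kept to TEB against duct within each lineage and to the difference of these differences between lineages.

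ATAC-seq measures open chromatin by the insertion of sequencing adapters by a transposase. The cells came from 5-week-old female C57BL/6 mice carrying an E-cadherin-GFP reporter, and TEBs (the growing tips of the pubertal ducts) were micro-dissected away from the ducts behind them. All 4 groups were depleted of Ter119+, CD31+ and CD45+ cells and gated on CD24 and CD29, and basal cells were those low and luminal cells those high for E-cadherin-GFP, so Cdh1 (E-cadherin) itself served in the sort. Basal duct was represented by 2 libraries (replicates 1 and 3), and each of the other groups (basal TEB, luminal TEB, luminal duct) by 3, from independent pools of mice. Each library pooled the cells of several animals, so animals cannot be told apart within a library.

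The basal layer of the mammary duct consists largely of myoepithelial cells, which carry keratins of stratified epithelia, contract with a smooth muscle-like apparatus and lay down the basement membrane. Luminal cells line the lumen and carry the simple keratins Krt8 and Krt18. Promoters fall broadly into CpG-rich ones, which are open in most cell types, and CpG-poor ones, which tend to be open in few.

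Stretches just upstream of the TSS of 5 of these promoters are shown, since they carry short motifs that are taken up below (mm10, read 5′ to 3′ on the strand of the gene, from the GRCm38 reference). They were taken from the named members with the highest basal CPM that held the motif, and none of the bases lie in an annotated exon. Matches to other motifs searched below were left in lower case. Capitals mark only the motif matches named next. In Krt17 they mark GGAATG, the core recognised by TEAD factors, and a CArG box, the element bound by SRF, which here also holds the letters of a TATA box and ends 24 bases before the TSS. In Pdk4 they mark GGAATG and a p63/p53 half-site, in Krt14 and Lgr6 the SOX core AACAAT, and in Ephb3 a p63/p53 half-site.
Krt17 (chr11:100261030-100261162, minus strand): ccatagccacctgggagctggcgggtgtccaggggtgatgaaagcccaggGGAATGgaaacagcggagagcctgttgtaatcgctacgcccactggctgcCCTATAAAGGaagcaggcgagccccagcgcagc
Pdk4 (chr6:5496576-5496679, minus strand): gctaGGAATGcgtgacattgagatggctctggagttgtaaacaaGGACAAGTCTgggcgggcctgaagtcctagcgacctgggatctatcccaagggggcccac
Krt14 (chr11:100207631-100207736, minus strand): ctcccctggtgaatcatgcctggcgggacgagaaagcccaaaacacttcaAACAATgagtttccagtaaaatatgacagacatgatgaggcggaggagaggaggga
Lgr6 (chr1:135105284-135105389, minus strand): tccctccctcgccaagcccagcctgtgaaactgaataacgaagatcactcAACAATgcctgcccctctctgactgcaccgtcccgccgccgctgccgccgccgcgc
Ephb3 (chr16:21210956-21211065, plus strand): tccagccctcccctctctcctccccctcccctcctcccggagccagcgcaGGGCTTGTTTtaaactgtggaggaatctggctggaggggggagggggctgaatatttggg

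The libraries held 1821942 to 9986384 counts in peaks, with the lowest totals in basal TEB. The median count in a basal-biased promoter peak was 99 to 139.5 in the basal duct libraries, 20 to 29.0 in basal TEB and 10 to 17.0 in the luminal libraries, so values of single peaks in basal TEB and luminal cells carry the larger counting error. Promoter peaks accounted for 40 to 42.7% of basal duct counts and 31.1 to 35.7% of basal TEB counts, with 32.7 to 37.4% in luminal libraries. Mostly repeat-masked peaks accounted for 2.4 to 2.45% of basal duct counts, 4.46 to 7.21% of luminal counts and 7.03 to 16.2% of basal TEB counts, with basal TEB replicate 1 the highest. The basal-biased promoters themselves made up 2.34 to 2.36% of counts for basal duct, 1.68 to 1.95% in basal TEB and 0.541 to 0.623% in the luminal libraries.

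The median basal-biased promoter stood at 14.0 CPM in basal duct, 11.7 in basal TEB, 3.07 in luminal duct and 3.36 in luminal TEB. The median basal to luminal ratio was 3.95 in ducts (quartiles 2.96 and 5.96) and 3.03 in TEBs (quartiles 2.37 and 4.14). Both ratios were 4 or more at 275 promoters and 8 or more at 40. The duct ratio exceeded the TEB ratio at 935 of the 1248 (74.9%). In ducts the basal and luminal libraries did not overlap at 1247 promoters and in TEBs at 1129, which follows in part from the rule. At 1082 every basal library lay above every luminal one. These counts rest on the values that the rule used and were not taken over other promoters, so they are descriptions only. Among the 14198 promoter peaks with both basal means at 3 CPM or more, 1467 met the duct ratio but missed the TEB ratio, and 192 met the TEB ratio but missed the duct ratio. At the boundary, Ypel2 (TEB ratio 2.002), Frrs1l (TEB ratio 2.002) and Art3 (duct ratio 2.002) lay just inside, and Il6 (duct ratio 2.0 after rounding), Tgfbr3 and A930017K11Rik (TEB ratio 1.999 each) just outside, so the edge of the set is finer than the spread between libraries.

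**Figure D1:**
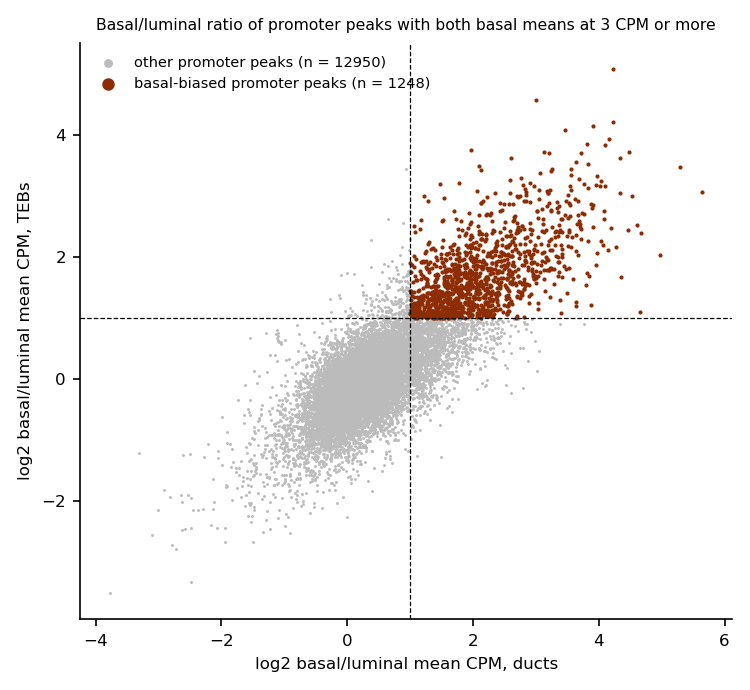
Each point is a promoter peak with both basal means at 3 CPM or more, placed by the log2 ratio of basal to luminal mean CPM in ducts (x) and in TEBs (y). Dashed lines mark the ratio of 2 in each structure, and the 1248 basal-biased promoters (dark points) fill the upper right corner without a gap from the other promoters (grey).

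Most of the basal keratin promoters matched the sorted lineage. Of the 6 basal keratins with a promoter peak, Krt5, Krt14, Krt15 and Krt17 were basal-biased, and 1 other had a luminal-biased promoter peak. Krt14, the keratin partner of Krt5 in the basal layer, had 45.9 and 50.5 CPM in basal duct and 10.4, 25.3 and 18.1 CPM in basal TEB, against 1.23, 1.44 and 0.215 CPM in luminal duct and 1.44, 1.6 and 3.38 CPM in luminal TEB. Its duct ratio of 50.1 was the largest of all 1248, and its TEB ratio was 8.39. Krt5 had 17.8 and 15.8 CPM in basal duct, 7.14, 4.42 and 8.33 in basal TEB, 0.719 to 1.08 in luminal duct, and 0.287, 0.0 and 1.01 in luminal TEB. The library with a count of 0 for Krt5, luminal TEB replicate 2, allows up to 0.802 CPM (3 counts). Krt17 stood at 62.7 and 58.7 CPM in basal duct and at 23.1, 35.7 and 36.8 CPM in basal TEB, and lay between 2.46 and 4.6 CPM in the luminal libraries. Krt15 showed the smallest bias of the 4, with ratios of 2.52 in ducts and 2.48 in TEBs, and its basal TEB replicate 1 (6.04 CPM) lay below luminal duct replicate 3 (8.17 CPM).

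The promoters of the luminal keratins were open in basal cells too. Krt8 averaged 47.9 CPM in basal duct against 54.1 CPM in luminal duct, and 31.0 CPM in basal TEB against 47.1 CPM in luminal TEB. Krt18 averaged 17.0 against 29.6 CPM in ducts and 7.26 against 26.9 CPM in TEBs. Of 39 pan-luminal genes with a promoter peak, 1 was basal-biased and 9 had a luminal-biased promoter peak. The basal-biased one was Tfap2c, which encodes the transcription factor AP-2 gamma, with 38.6 and 35.4 CPM in basal duct and 12.9 to 16.3 CPM in luminal libraries. None of 25 housekeeping genes with a promoter peak was basal-biased.

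**Figure D2:**
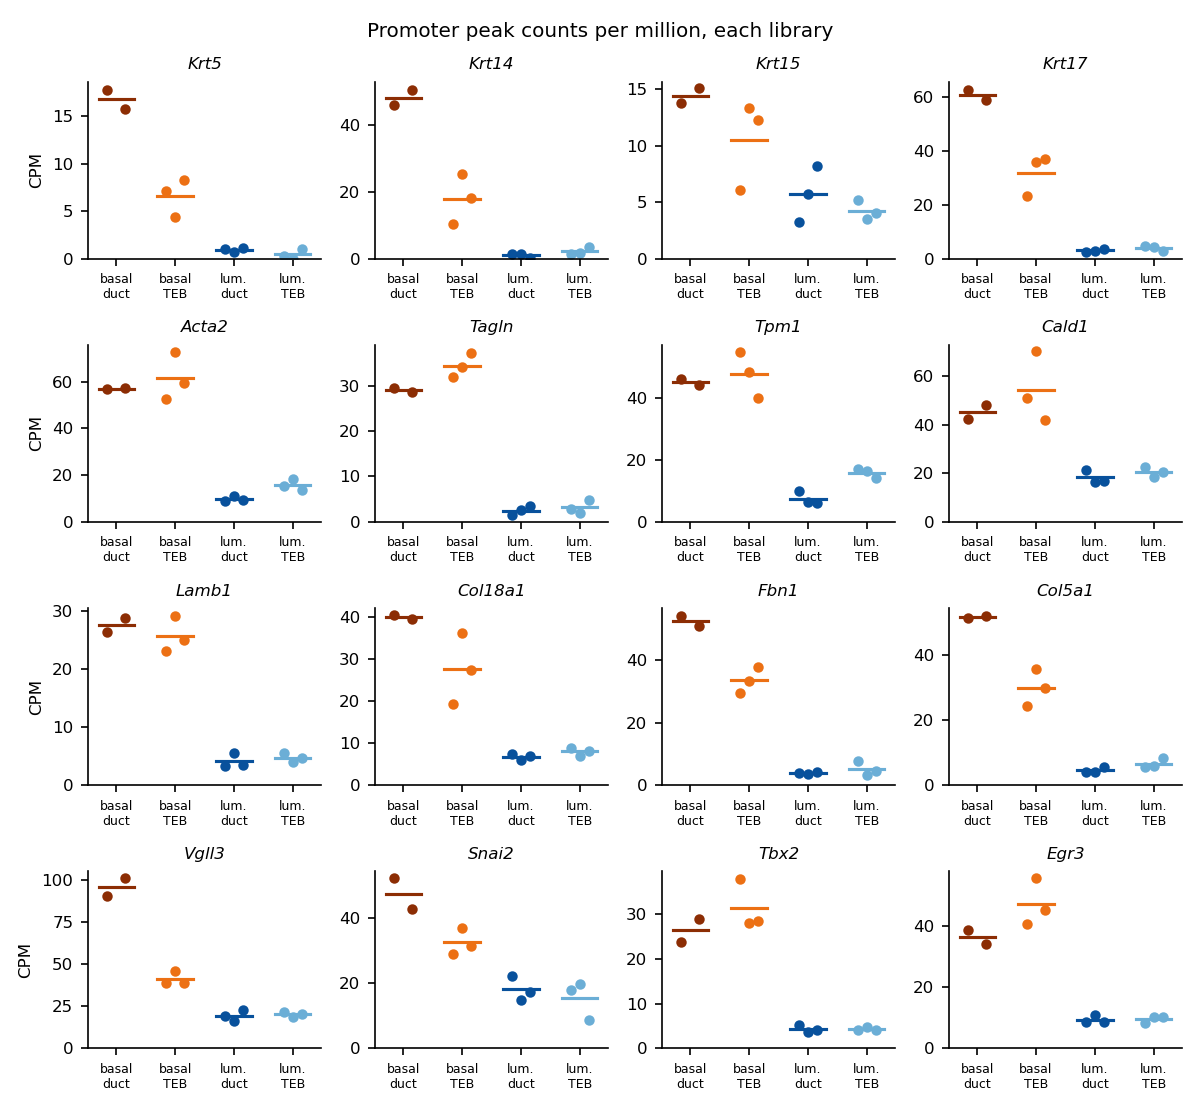
CPM at 16 basal-biased promoters (one panel each, y axis from 0) in every library of the 4 groups on the x axis, with points for libraries and bars for group means. Krt5, Krt14, Krt17 and Vgll3 were lower in basal TEB than in basal duct in every library, whereas the contractile genes Acta2, Tpm1 and Cald1 overlapped between basal duct and basal TEB.

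The set was compared with 11 lists of genes known from basal cells and their signalling. Of 300 listed genes with a promoter peak, 102 (34.0%) were basal-biased, against 1151 of all 14886 genes with a promoter peak (7.73%). The share was above the latter in all 11 lists, and ranged from 11.5% in the TGF-beta and BMP pathway to 66.7% in the basal keratins. A luminal-biased promoter peak lay at 1 gene in each of the keratin, adhesion, transcription factor and TGF-beta lists, and at 3 growth factor genes. The lists were drawn up with basal biology and earlier results of these data in mind, so their share is a description.

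Of 25 genes of the contractile apparatus, 13 (52.0%) were basal-biased. Acta2, the smooth muscle actin, had 56.8 and 57.4 CPM in basal duct, 52.7, 72.7 and 59.3 CPM in basal TEB, 9.02 to 11 CPM in luminal duct and 13.5 to 18.5 CPM in luminal TEB. Its basal duct and basal TEB libraries overlapped. Tagln (transgelin, an actin-binding protein) had 29.5 and 28.5 CPM in basal duct, 31.8, 34.1 and 37.2 CPM in basal TEB and 1.44 to 4.73 CPM in luminal libraries, giving ratios of 11.8 and 10.9. The tropomyosin gene Tpm1 and the caldesmon gene Cald1 averaged 45.3 and 45.2 CPM in basal duct. Cald1 kept 16.5 to 22.4 CPM in luminal cells, so its ratios were only 2.46 and 2.66. Tpm2 averaged 31.6 CPM in basal duct and 21.8 CPM in basal TEB against 4.35 and 5.08 CPM in the luminal groups. The other contractile members were Actg2, Myh11, Myl9, Cnn1, Lmod1, Smtn, Flna and Prkg1.

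Extracellular matrix genes made up a further part of the set. Of these, 15 of 29 basement membrane genes (51.7%) and 17 of 27 genes of the interstitial matrix and its remodelling (63%) were basal-biased. Lamb1, which encodes the laminin beta 1 chain, had 26.4 and 28.8 CPM in basal duct, 23.1, 29.3 and 25 CPM in basal TEB and 3.28 to 5.57 CPM in the luminal libraries. Col18a1 (collagen XVIII), Frem2 (a basement membrane anchor) and Nid2 (nidogen 2) averaged 39.9, 40.7 and 29.9 CPM in basal duct and 27.6, 25.3 and 17.4 CPM in basal TEB. Their luminal means were 6.73 and 7.99, 9.1 and 7.03, and 12.5 and 7.26 CPM in duct and TEB. Col5a1 (a chain of the fibrillar collagen V) and Fbn1 (fibrillin 1, a peak it shares with the predicted gene Gm9913) had duct ratios of 11.4 and 13.6 and TEB ratios of 4.54 and 6.56, and the promoter of Agrn (agrin, a basement membrane proteoglycan) had ratios of 12.9 and 9.71. Thbs1, encoding the matrix protein thrombospondin 1, held 40.7 to 52.1 CPM in all 5 basal libraries, 9.89 to 11.1 CPM in luminal duct and 17.4 to 18.9 CPM in luminal TEB. Col16a1 (27.3 CPM in basal duct) and Ltbp1 (28.5 CPM), a binding protein of latent TGF-beta, had ratios of 2.14 to 3.42.

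Matrix genes are also typical of fibroblasts, and 6 of the 9 fibroblast markers with a promoter peak were basal-biased (Col1a2, Fbln1, Fbln2, Fbn1, Col5a1 and Twist2). The summed level of those 9 was 188.8 to 188.9 CPM in basal duct, 103.7 to 127.7 CPM in basal TEB, 49.0 to 51.4 CPM in luminal duct and 48.6 to 55.2 CPM in luminal TEB. The other 9 markers of that list, among them Dpt, Lum, Pi16, Col1a1 and Col3a1, had no promoter peak. The part of other cells in the levels of the matrix promoters was not tested, and in bulk libraries more cells of a type and more accessibility per cell cannot be told apart. Among endothelial markers, Kdr and Sox18 were basal-biased (means of 14.8 and 9.9 CPM in basal duct, 13.7 and 7.87 CPM in basal TEB, and 1.96 to 4.05 CPM in luminal groups), whereas Pecam1 and Cdh5 had no promoter peak. The summed levels of the 7 endothelial markers with a peak were 73.5 to 80.5 CPM in basal duct, 46.6 to 67.0 in basal TEB and 25.6 to 42.2 in the luminal libraries. Pdgfrb was the single one of 6 pericyte markers with a promoter peak in the set. Sox10 and Ngfr were 2 of 6 Schwann cell and nerve markers, and Krt79 was 1 of 5 keratinocyte markers. All of these averaged 12.3 CPM or less. The endothelial, keratinocyte, immune and adipocyte lists each held 1 gene with a luminal-biased promoter peak. Summed levels of the pericyte markers were 50.3 to 56.1 CPM in basal duct and 26.7 to 28.7 CPM in luminal duct. For Schwann cell and nerve markers these sums were 102.1 to 106.1 and 96.8 to 107.0 CPM. For keratinocyte markers they were 54.5 to 56.2 and 53.5 to 68.3 CPM. None of the 3 immune or 3 adipocyte markers with a promoter peak was basal-biased, and Ptprc, which encodes CD45, had no promoter peak.

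Of 29 adhesion genes, 7 (24.1%) were basal-biased. Cdh3 (P-cadherin, a marker of myoepithelial cells) averaged 44.2 CPM in basal duct and 30.8 CPM in basal TEB, against 12.7 and 14.4 CPM in luminal cells. Cdh2 (N-cadherin) averaged 51.3 and 33.9 CPM against 11 and 8.36 CPM. Cdh11 had 33.6 and 33.4 CPM in basal duct, 8.78, 17.3 and 15.2 CPM in basal TEB and 1.01 to 3.44 CPM in luminal libraries. By contrast the Cdh1 promoter, whose reporter served in the sort, averaged 27.4 and 19.6 CPM in the basal and 37.0 and 31.6 CPM in the luminal groups. Cav1 (caveolin 1) and Pxn (paxillin, a focal adhesion scaffold) averaged 40.0 and 31.6 CPM in basal duct, with TEB ratios of 2.38 and 4.58. Parva and Dst completed the group.

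Among 39 genes of transcription factors and cofactors known from basal cells, 12 (30.8%) were basal-biased. Vgll3, a cofactor of TEAD factors, had the highest basal duct level of all 1248, with 90.4 and 100.9 CPM. It fell to 39.0, 45.8 and 38.7 CPM in basal TEB, and had 16.4 to 22.6 CPM across the luminal libraries. Snai2 (Slug, an E-box repressor) had 52.2 and 42.7 CPM in basal duct, 29.1, 37.0 and 31.4 CPM in basal TEB and 8.78 to 22.1 CPM in luminal libraries. Egr3 and Tbx2 were at least as high in basal TEB (means of 47.0 and 31.5 CPM) as in basal duct (36.2 and 26.4 CPM), with the duct and TEB libraries of Tbx2 overlapping. Irx4, a homeobox factor, had 23.2 and 20.2 CPM in basal duct, 9.88, 16.1 and 10.3 CPM in basal TEB and 0.615 to 2.7 CPM in luminal libraries. Sox10, Sox11, Myocd (the SRF coactivator myocardin), Nfix, Bcl11b, Twist2 and Meox1 were the other members.

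Of the signalling lists, the Wnt pathway held 7 of 32 genes, namely the ligands Wnt6, Wnt10a and Wnt11, the receptor Lgr6, the secreted Dkk3, the nuclear factor Tcf7 and the inhibitor Nkd1. Lgr6 averaged 26.8 and 24.1 CPM in basal duct and TEB against 4.1 and 4.51 CPM in luminal cells, and the more open of the 2 basal-biased promoter peaks of Dkk3 18.9 and 13.2 CPM against 2.11 and 2.43 CPM. Wnt10a, Tcf7 and Nkd1 averaged 22.5, 30.9 and 28.7 CPM in basal duct. In the Notch pathway the 2 of 16 genes were the ligands Dll1 (42.2 and 28.0 CPM in basal duct and TEB, 7.44 and 6.83 in luminal duct and TEB) and Jag2 (20.5 and 11.5 CPM, 4.23 and 2.84 CPM). In the TGF-beta and BMP pathway the 3 of 26 genes were the secreted antagonists Fst, Grem1 and Nog, whose basal duct means were 15.7, 5.77 and 9.28 CPM. In axon guidance, 10 of 33 genes were basal-biased. They included the netrin receptor Unc5c (40.0 CPM in basal duct, duct ratio 3.62), Sema5a (46.7 CPM, 3.24) and the Eph receptors Epha4, Ephb3 and Ephb4, with duct ratios of 2.18, 2.96 and 2.11. Of the growth factor genes, 12 of 40 were in the set. Egfr averaged 49.5 and 31.2 CPM in basal cells against 15.8 and 14.0 CPM in luminal cells, Nrg1 (neuregulin 1, an ErbB ligand) 44.8 and 40.7 against 20.4 and 16.3 CPM, and Igfbp3 30.8 and 21.0 against 1.82 and 3.4 CPM. Fgf2 and the EGF family ligand Ereg averaged 31.5 and 29.5 CPM in basal duct and 11.9 and 13.3 CPM in basal TEB.

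The highest basal levels over both structures were at Pdk4, Vgll3, Gpc6, Slc6a15, Sh3tc2 and Acta2. Pdk4, an inhibitory kinase of pyruvate dehydrogenase, had 79.9 and 77.9 CPM in basal duct, 69.7, 105.6 and 77.9 CPM in basal TEB and 12.0 to 18.3 CPM in luminal libraries. Gpc6 (a glypican) and Slc6a15 (an amino acid transporter) were high in luminal cells too, with luminal means of 23.7 to 34.9 CPM, and stood close to the limit of 2 in TEBs (ratios of 2.02 and 2.12). Sh3tc2 averaged 63.5 and 56.5 CPM in basal duct and TEB against 4.49 and 6.43 CPM in luminal cells. Among promoters above the median basal level of the set, the 8 with the largest smaller ratio were those of Arap1 (18.6 in both structures), Eva1c (18.7 and 34.0), Ankrd65 (14.9 and 17.7), Plekha7 (17.1 and 14.3), Ppfibp2 (22.2 and 13.2), Dst (20.2 and 12.4), Tagln and Rcn3 (11.8 and 10.2). Eva1c had 28.3 and 24.4 CPM in basal duct and 17.6, 26.1 and 30.9 CPM in basal TEB, and 0.267 to 1.72 CPM in luminal libraries. Of these 8 promoters, 7 had a CpG observed to expected ratio below 0.4, a measure explained with the sequence features. The ratios hold for these peaks and not for the genes, since Arap1, Eva1c, Plekha7, Ppfibp2 and Dst also have promoter peaks outside the set. At Ppfibp2 that other peak averaged 44.4 and 30.2 CPM in basal duct and TEB, against 65.3 and 48.4 CPM in luminal duct and TEB. At Eva1c it averaged 49.4 and 31.9 CPM against 32.8 and 36.8 CPM.

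Some of these genes have more than one promoter, and the counts below were not taken over all genes with a promoter peak. Of the 1151 genes, 188 had another promoter peak, not in the set and with its TSS at least 2000 bases away. At 163 of them that other peak reached 3 CPM in both basal groups, and at 64 of these both its basal to luminal ratios lay within 1.5 times of equality. At 11 genes there was a luminal-biased promoter peak besides the basal-biased one (Add3, Bcas1, Dab2ip, Dst, Etl4, Mcf2l, Medag, Sorbs3, Vill, Vsir and Zbtb20). The next genes were picked after their values were seen, as those of the 11 lists whose other promoter reached 3 CPM in both basal groups and was lower in basal than in luminal cells in both structures, namely Agrn, Dst, Flna, Pxn and Tpm1.

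Dst, which encodes dystonin, a linker of the cytoskeleton to hemidesmosomes, was one of them. Its basal-biased promoter (chr1:34159891-34160519) had 20.2 and 20.4 CPM in basal duct, 13.7, 20.1 and 23.0 CPM in basal TEB, and 0.676 to 2.59 CPM in luminal libraries. A promoter of the same gene 154204 bases away (chr1:34005520-34006872) had 10 and 12.9 CPM in basal duct and 7.14, 9.24 and 11.3 CPM in basal TEB, against 35.6 to 42.1 CPM in luminal libraries, with no overlap in either direction. Pxn had 30.7 to 36.6 CPM in the basal libraries and 5.54 to 8.11 CPM in the luminal ones at its basal-biased promoter. At its other promoter, 37229 bases away, the basal libraries had 23.6 to 37.9 CPM and the luminal ones 42.6 to 55.7 CPM. At Tpm1 the promoters lie 5565 bases apart, and the other one averaged 15.6 and 15.5 CPM in basal and 25.1 and 26.9 CPM in luminal cells. For Agrn the basal-biased promoter averaged 13.2 and 16.7 against 1.02 and 1.72 CPM. Its CpG-rich promoter, 11587 bases away, averaged 33.5 and 19.5 CPM in basal and 35.7 and 35.0 CPM in luminal cells. At Flna the other promoter averaged 8.62 and 8.38 against 8.95 and 11.5 CPM, and its libraries overlapped.

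**Figure D3:**
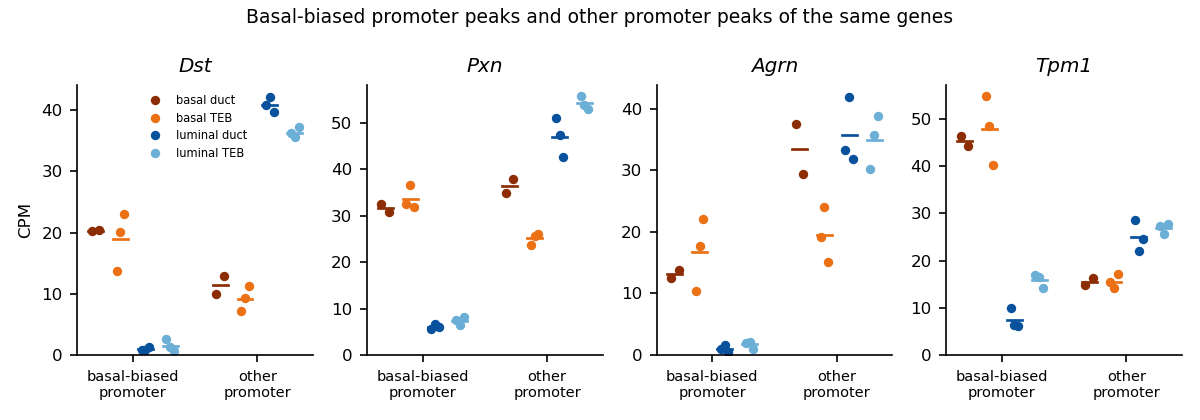
CPM (y axis from 0) at the basal-biased promoter peak and at the most luminal other promoter peak of Dst, Pxn, Agrn and Tpm1, with points for libraries, bars for group means and colours for the 4 groups. At Dst, Pxn and Tpm1 every basal library lay above every luminal one at the first promoter and below every luminal one at the second.

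A few members lay side by side. Within gaps of at most 100 kb, 4 runs of members held 4 or more genes. One was the type I keratin cluster on chromosome 11 (chr11:100135784-100270434), where 4 of the 6 promoter peaks were basal-biased, at Krt14, Krt15, Krt17 and Krt42. On chromosome 2 a run around Ak1 and the sialyltransferase genes St6galnac4 and St6galnac6 held 6 members among 8 promoter peaks, and a run at Duox2, Duoxa1, Duoxa2 and Sord held 3 of 3. The run on chromosome 5 (chr5:15475721-15714616) held 6 of 6, at the Speer4c, Speer4d, Gm21149, Gm21190, Gm21083 and 4930572O03Rik genes. These are close copies of one another, so the authors' read placement may have split counts among them and their single values are uncertain. Among the Speer and predicted genes at the start of chromosome 5 as a whole, 8 of 16 promoter peaks were basal-biased.

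Distal peaks around the same genes leaned to basal cells as well. Of 3201 non-promoter peaks 0.5 to 10 kb from a TSS of these genes, 1064 (33.2%) had basal means at least 2 times the luminal means in both structures, against 16.1% of all 30269 peaks at that distance from any gene. From 10 to 50 kb the share was 2374 of 9030 (26.3%), against 17.4% of 72575. Luminal-biased distal peaks were 12.1% and 17.1% near these genes, against 24.0% and 25.1% overall. Near genes with a luminal-biased promoter, 10.4% and 13.2% of peaks were basal-biased. These distal peaks were not used by the rule, but they come from the same libraries. At least one basal-biased distal peak lay within 50 kb of 911 of the 1151 genes (79.1%), against 58.4% of all genes with a promoter peak. Lama3, which encodes a laminin chain of hemidesmosomes, had 18 such peaks among 26, Lgr6 17 of 27, Col18a1 17 of 29, Cald1 15 of 29 and Krt5 12 of 19.

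The sequence of the basal-biased promoters differed from that of promoters at large. The CpG observed to expected ratio, near 1 in CpG islands and low where CpGs have been lost, had a median of 0.539 in the set, 0.712 in the 14198 promoter peaks at 3 CPM or more in basal cells, and 0.282 in luminal-biased promoters. It was below 0.4 in 425 of the 1248 (34.1%), against 11.4% of the 14198 and 71.6% of the luminal-biased ones. Put the other way, 26.3% of CpG-poor promoters (below 0.4) at that level were basal-biased, 12.4% of the intermediate ones and 5.09% of the CpG-rich ones (0.6 or more). The smaller of both ratios had a median of 3.39 in the CpG-poor members and 2.65 in the CpG-rich ones. GC content was close to that of all promoter peaks (medians of 59.4% and 60.0%). The peaks were narrower (836.5 against 990.0 bp), and 79.2% covered the TSS itself, against 84.2% of all promoter peaks. Peaks serving 2 or more genes, such as divergent promoters, made up 1.84% of the set and 7.43% of all promoter peaks.

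Short motifs were counted on both strands in the 300 bases at the midpoint of each peak. The intervals are 95% exact binomial ones and cover counting error over peaks only. The TEAD core GGAATG occurred in 15.3% of the set (13.4 to 17.4%), against 10.5% of promoters at 3 CPM or more in basal cells, 11.2% of all promoters and 18.3% of luminal-biased promoters. Over the whole peak it was at 38.2% (35.5 to 41.0%), against 37.2%, 34.2% and 28.6%. From 250 bases before to 50 after the TSS it was at 14.7% (12.8 to 16.8%), against 11.4%, 11.8% and 15.3%. The SOX core AACAAT occurred in 6.65% (5.33 to 8.18%), against 3.72%, 4.35% and 9.68%. Over the whole peak it turned to 14.9% (13.0 to 17.0%) against 18.3% of promoters at 3 CPM or more in basal cells and 16.7% of all, and from 250 bases before to 50 after the TSS the interval (5.4 to 8.27%) held the 5.72% of all promoters. TATAAA occurred in 5.77% (4.54 to 7.21%), against 3.41%, 4.19% and 8.87%, and over the whole peak in 14.7% against 16.1%, 14.9% and 14.9%. The CArG box was rare, with 18 promoters or 1.44% (0.857 to 2.27%) against 0.894% and 0.932%. The p63/p53 half-site, with 6.97% (5.62 to 8.53%) against 5.54% and 6.11%, and the AP-1 element TGACTCA, with 5.53% (4.33 to 6.95%) against 3.96% and 5.01%, differed little from all promoters. AP-1 was found in 19.8% of luminal-biased promoters. The sets overlap, since the basal-biased promoters are among the others compared.

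Motifs of widely active promoters were scarcer. The ETS core CCGGAAG occurred in 3.53% (2.57 to 4.7%) of the set, against 12.7% of promoters at 3 CPM or more in basal cells and 11.3% of all promoters. The SP/KLF core GGGCGG occurred in 47.4% against 64.0% and 59.2%, the NRF1 element GCGCATGC in 1.12% against 2.99% and 2.69%, and the CRE TGACGTCA in 0.881% against 1.97% and 1.77%. The GRHL element AACCGGTT was found in none of the 1248 windows and in 0.247% of all promoters, and the NFI element was found in none and in 0.018%. FOX (TGTTTAC) and E-box (CAGGTG) matches were at 1.36% and 20.7%, against 2.19% and 22.4% of all promoters. The RUNX core TGTGGT was at 13.9% against 11.4% of all promoters. For GATA factors the motif searched was AGATAA, at 5.53% against 4.28%. The NF-Y element CCAAT was at 29.3% against 27.6% and the EGR element GCGTGGG at 8.97% against 9.77%. The SMAD palindrome GTCTAGAC (0.401% against 0.229%) and the MEF2 element (0.16% against 0.21%) were rare.

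These shares depended on CpG content. Among CpG-poor promoters, AACAAT occurred in 14.6% of basal-biased and 7.54% of other promoters at that level, GGAATG in 26.1% against 18.4%, and TATAAA in 10.8% against 6.37%. Among CpG-rich promoters the same motifs were at 2.14% against 2.92%, 6.82% against 8.34%, and 2.53% against 2.68%. The ETS core was scarcer in the set at every CpG content, with 1.65% against 5.62% in CpG-poor, 5.48% against 10.3% in intermediate and 3.9% against 15.4% in CpG-rich promoters. AP-1 was scarcer among the CpG-poor members (10.4% against 14.8%).

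**Figure D4:**
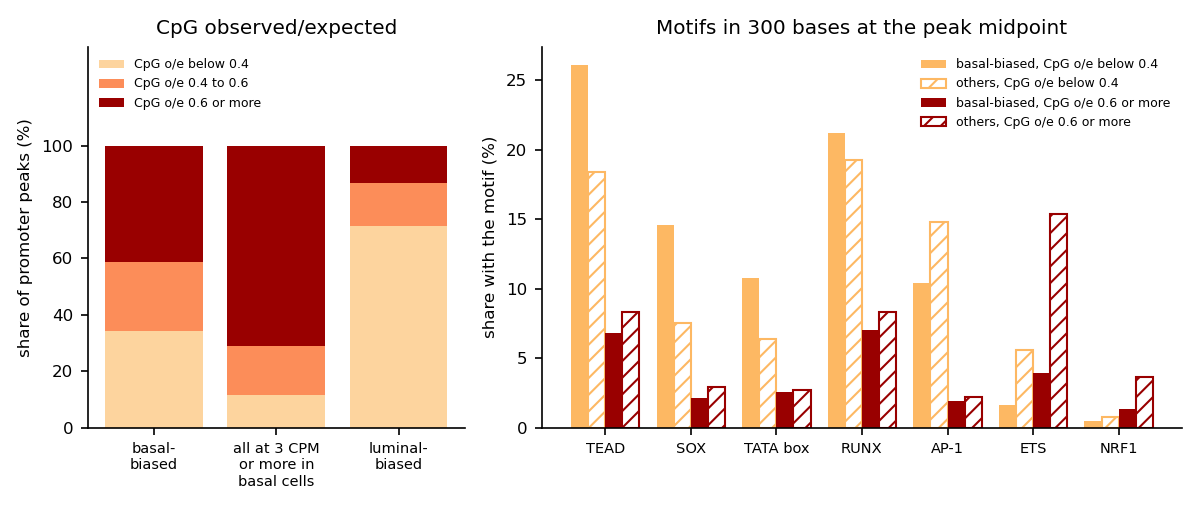
Left, share of promoter peaks (%) by CpG observed to expected ratio in the basal-biased set, in all promoter peaks at 3 CPM or more in basal cells and in luminal-biased promoters. Right, share of windows (%) with 7 motifs in basal-biased (filled) and other (hatched) promoters, for CpG-poor (orange) and CpG-rich (dark red) promoters, where ETS is lower in the filled bars of both colours and SOX is higher in the CpG-poor bars.

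Accessibility in TEBs was then compared with that in ducts within basal cells. Both arms of this contrast served in the rule, which asked for 3 CPM and for a ratio of at least 2 to the luminal mean in each structure, so promoters that fell in basal TEB were more often left out. The share that was lower and the median of the set are therefore descriptions, and their distance from other promoters is in part set by the rule. By the edgeR exact test, 313 of the 1248 basal-biased promoters (25.1%) were lower and 12 (0.962%) higher in basal TEB than in basal duct at an FDR of 0.05. Among all promoter peaks at 3 CPM or more in basal cells, 36.0% were lower and 0.289% higher, and among all peaks 9.73% were lower and 8.22% higher. The median log2 difference of the set was -0.51, against -0.67 for promoter peaks past that CPM limit and 0.02 for all peaks. The split depended on the scaling. TMM factors estimated from promoter peaks alone moved the median of all peaks from 0.02 to 0.67. With them, 31 of the 1248 basal-biased promoters were lower and 73 higher, beside 3.57% lower and 4.16% higher of promoter peaks past that limit. The median of the set was 0.14, against -0.01 for those promoter peaks. The lower promoter share and higher share of repeat-masked counts in basal TEB libraries, given above, run along with this contrast, and their part in it was not tested. Calls also leaned on the duct libraries, as only 10 lower and 0 higher were left without basal duct replicate 1, and 62 lower and 1 higher without replicate 3.

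In all, 10 promoters were lower in basal TEB under the reported fit and all 12 alternatives, which were Adam12, Atoh8, Chil1, Dse, Fam53b, Gnai1, Iqca, Krt14, Serpina3i and Vgll3. Adam12, a membrane metalloprotease, had 28.3 and 29.9 CPM in basal duct and 13.7, 6.03 and 5.88 CPM in basal TEB, a log2 difference of -2.02 (SE 0.38, adjusted p = 5.3e-07). Vgll3 differed by -1.43 (SE 0.11, adjusted p = 8e-06) and Krt14 by -1.61 (SE 0.38, adjusted p = 1.2e-05). The bHLH factor gene Atoh8 had 29.7 and 26.7 CPM in basal duct and 6.04, 8.84 and 14.2 CPM in basal TEB (log2 difference -1.77, adjusted p = 7.4e-06). The secreted chitinase-like Chil1 had 50.8 and 52.2 CPM against 13.7, 23.3 and 19.6 CPM (-1.65, adjusted p = 1.9e-06). Dse and Gnai1 differed by -1.64 and -1.58 (adjusted p = 4.6e-06 and 7.4e-06). No basal TEB library reached either duct library at any of these 7 promoters. Chst2, a sulfotransferase gene, also fell (-1.57, adjusted p = 4.4e-06), but not past the threshold without basal duct replicate 1.

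Of the 102 basal-biased genes in the 11 lists, 34 (33.3%) were lower in basal TEB, beside 25.1% of the whole set and 36.0% of promoter peaks at 3 CPM or more, and the lists were not tested against one another. Of the 4 basal keratins, Krt5 (-1.6, adjusted p = 0.00032), Krt14 and Krt17 (-1.15, adjusted p = 0.00091) fell, and their list had a median of -1.37. Krt15 differed by -0.65 (adjusted p = 0.18). Of 13 contractile genes only Prkg1, a cGMP-dependent kinase gene, was lower by this test, and the list median was -0.38. Acta2, Tagln, Tpm1 and Cald1 differed by -0.11, 0.02, -0.15 and 0.07, with adjusted p values of 0.82 to 1.0. Tpm2 differed by -0.74 (adjusted p = 0.061), with every basal TEB library below both basal duct libraries. Of 15 basement membrane genes 4 fell (Col4a1, Col4a2, Nid2 and Frem2), and of 17 interstitial matrix genes 5 (Col1a2, Col5a1, Col5a2, Fbn1 and Loxl1). The fibroblast markers moved along, with 4 of 6 lower (Col1a2, Fbln1, Fbn1 and Col5a1, of which 3 are the same genes) and a median of -0.94, and their part in the matrix values was not tested. Of these 4 markers, 0 were still past the threshold with promoter-based TMM factors, and 2 (Fbn1 and Col5a1) with DESeq2. In the adhesion list 3 of 7 genes (Parva, Cdh2 and Cdh11), 4 of 12 transcription factor genes (Snai2, Sox10, Vgll3 and Irx4) and 3 of 7 Wnt genes (Wnt6, Wnt10a and Nkd1) were lower. Both Notch ligands, Dll1 (-0.81, adjusted p = 0.037) and Jag2 (-1.06, adjusted p = 0.013), fell, as did 4 of 10 axon guidance genes (Slit3, Unc5c, Sema5a and Ephb2) and 5 of 12 growth factor genes (Egfr, Ereg, Fgf2, Igf1r and Igfbp3). None of Fst, Grem1 and Nog passed the test. No member of the 11 lists was higher in basal TEB. With promoter-based TMM factors only 4 of the 34 (Krt14, Cdh11, Vgll3 and Fgf2) were still past the threshold, so none of the basement membrane, interstitial matrix, Wnt, Notch or axon guidance genes was. Without basal duct replicate 1 only Krt14 and Vgll3 were, while 9 of the 34 were called without basal duct replicate 3, 19 without basal TEB replicate 3 and 18 with DESeq2. By CpG content, 14.8% of the CpG-poor and 37.0% of the CpG-rich members were lower in basal TEB. Their median log2 differences were -0.35 and -0.69, and promoters outside the set had medians of -0.49 (CpG-poor) and -0.72 (CpG-rich). The CpG-poor members also had lower basal levels, with a median of 10.6 CPM against 16.0 CPM in the CpG-rich ones.

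Of the 12 promoters that were higher in basal TEB, the 6 with the smallest p were those of Klrb1a, Rnase13, Tspear, Ankk1, Kcnt2 and Ttyh1. Klrb1a, a lectin-like receptor gene of natural killer cells, had 3.4 and 7.19 CPM in basal duct and 15.4, 16.5 and 17.6 CPM in basal TEB, a log2 difference of 1.46 (SE 0.43, adjusted p = 0.0016). Rnase13 had 4.11 and 4.4 CPM against 9.88, 16.5 and 10.8 CPM, and Ankk1 4.41 and 4.4 CPM against 12.6, 12.5 and 10.8 CPM. Kcnt2, a potassium channel gene, had 5.71 and 5.87 CPM in basal duct and 11 to 16.9 CPM in basal TEB. The log2 differences of Rnase13, Tspear, Ankk1, Kcnt2 and Ttyh1 were 1.08 to 1.39 with adjusted p values of 0.0083 to 0.017. With a replicate block, 6 of the 12 were still called, and Rnase13, Tspear, Kcnt2 and Ttyh1 were not (adjusted p = 0.079, 0.11, 0.067 and 0.09 by the edgeR quasi-likelihood test). Without basal TEB replicate 2, 8 were called, and Rnase13, Tspear and Ttyh1 were not. All 12 were also called higher with promoter-based TMM factors. None was called without basal duct replicate 1, and Klrb1a alone was called higher without replicate 3.

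**Figure D5:**
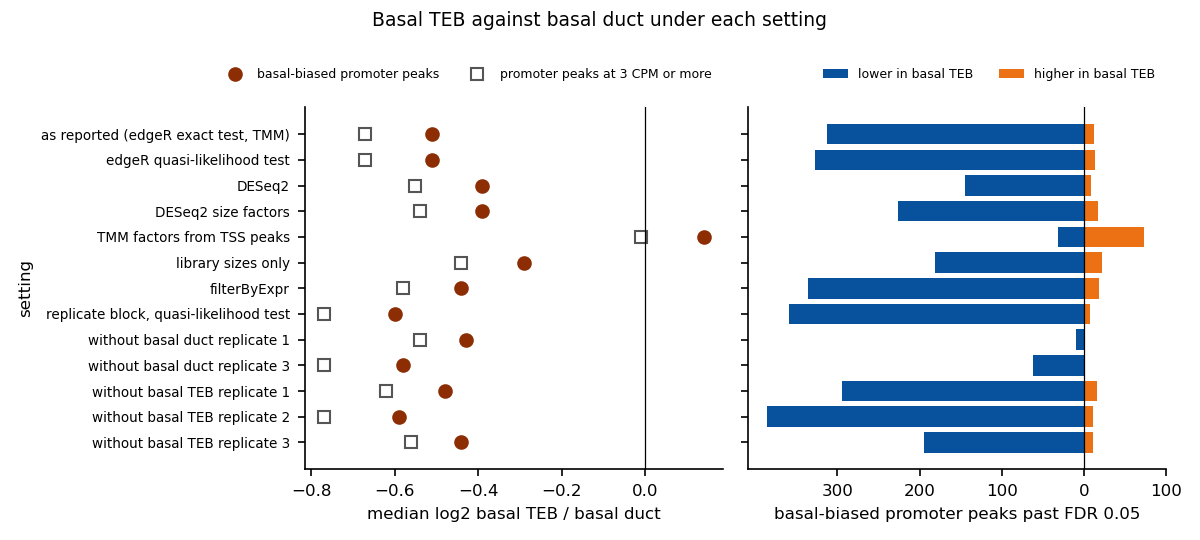
Basal TEB against basal duct under the reported fit and 12 alternatives (y axis). Left, median log2 difference of basal-biased promoters (circles) and of all promoter peaks at 3 CPM or more (squares), and right, number of basal-biased promoters lower (blue, leftward) and higher (orange, rightward) at an FDR of 0.05. Circles lie right of the squares in each setting, in the direction in which the rule selects, and the balance turns to higher only with TMM factors from promoter peaks.

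In luminal cells, where these promoters were least open, TEB and duct differed at few of them. By the same test 3 were higher (Tpm1, Krt73 and Sept9) and 4 lower (Cyp2r1, Aass, Mme and Pcdh9) in luminal TEB. This is 0.24% and 0.321% of the set, against 0.0986% and 1.4% of promoters at 3 CPM or more in basal cells and 0.311% and 0.455% of all peaks. Their median log2 difference was 0.04, against -0.16 for promoters at that level. Both luminal means served in the rule too, which asked for a basal mean at least 2 times the luminal one in each structure. The set was also less open in luminal cells than promoter peaks at large, and the part of its low counts was not tested. The shares and the median of the set are therefore descriptions, and their distance from other promoters is in part set by the rule. Tpm1 had 10, 6.29 and 6.24 CPM in luminal duct and 17.0, 16.6 and 14.2 CPM in luminal TEB (log2 difference 1.03, SE 0.24, adjusted p = 0.0084), without overlap. Sept9, a septin gene, had 3.44 to 4.1 CPM against 8.29 to 8.78 CPM (1.1, adjusted p = 0.036). Krt73 rested on one library, with 6.9, 1.6 and 2.03 CPM in luminal TEB against 0.215 to 0.82 CPM in luminal duct (2.44, adjusted p = 0.016), and was not called without luminal TEB replicate 1 or without luminal duct replicate 2 or 3. Cyp2r1, a vitamin D 25-hydroxylase, had 18.7, 18.9 and 22.6 CPM in luminal duct and 9.19, 7.76 and 5.07 CPM in luminal TEB (-1.48, SE 0.25, adjusted p = 7.2e-07). It was lower in basal TEB too, with 44.6 and 38.7 CPM in basal duct and 19.2, 21.3 and 10.3 CPM in basal TEB (-1.51, adjusted p = 5.8e-05, not past the threshold without basal duct replicate 1). Aass, a lysine-degrading enzyme gene, fell from 12.0 to 17.0 CPM in luminal duct to 5.74 to 6.95 CPM in luminal TEB (-1.26, adjusted p = 0.00071). Cyp2r1 and Aass were called without any one library. Tpm1 was lost without luminal duct replicate 2 or luminal TEB replicate 1, and Sept9, Mme (-0.83, adjusted p = 0.042) and Pcdh9 (-0.8, adjusted p = 0.046) without any one of the 6.

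The difference between TEB and duct was lastly compared between lineages, by an interaction term in the edgeR quasi-likelihood test over the 11 libraries. At 127 promoters (10.2%) the basal difference was lower than the luminal one, and at 0 higher, where 8 had an unadjusted p under 0.05 and DESeq2 called 0. Among promoters at 3 CPM or more in basal cells, 17.9% were called lower and 0.345% higher, and among all peaks 7.45% and 7.05%. The rule left out promoters whose bias fell short of 2 in TEBs, and also those whose bias fell short of 2 in ducts. The set is thus cut off both on the side of a falling and on that of a rising bias. The shares called are therefore descriptions, and their distance from other promoters is in part set by the rule. With promoter-based TMM factors 32 were lower and 13 higher. Of promoters at 3 CPM or more in basal cells, 4.37% and 5.4% were then lower and higher. Of the 127, 100 were also lower in basal TEB than in basal duct, a contrast that shares its libraries with the interaction. Prima1 had the largest of the 6 interactions with the smallest p, with 21.1 and 19.2 CPM in basal duct, 8.23, 15.3 and 6.86 CPM in basal TEB, 1.23 to 1.62 CPM in luminal duct, and 7.18, 2.14 and 3.72 CPM in luminal TEB. Its basal to luminal ratio thus went from 14.6 in ducts to 2.33 in TEBs (log2 difference -2.73, SE 0.58, adjusted p = 0.00049). Vgll3 (-1.42, SE 0.16, adjusted p = 0.00046) went from a ratio of 4.93 to 2.04, with its luminal groups level at 19.4 and 20.2 CPM. Medag went from 6.99 to 2.02 and Adam12 from 11.2 to 2.65. Irx4 (25.5 to 5.27, adjusted p = 0.0053) and Krt14 (50.1 to 8.39, adjusted p = 0.0036) were among the 25 promoters called in all 17 alternatives, along with Vgll3, Adam12, Prima1, Medag, Chil1, Chst2, Col5a1, Slit3 and the weaker promoter peak of Dkk3. That peak averaged 6.76 CPM in basal duct, 3.81 CPM in basal TEB, 0.268 CPM in luminal duct and 1.79 CPM in luminal TEB, while the more open Dkk3 promoter described above was not called (-0.93, adjusted p = 0.22). Gm21149 and Speer4d of the repeated run on chromosome 5 were called as well, with the uncertainty given above.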

How the data were processed

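The members and gene lists were chosen with earlier results of these data known. Per the labels and the study's methods, the authors aligned adapter-trimmed reads to mm10 (Bowtie2 2.3.4.3 in the submitters' processing notes), took out duplicates, ran MACS2 peak calling on the pooled replicates of a population, merged the peak sets, and deposited raw read counts per merged peak and library, without normalization. Since peaks were called on pools, a peak is no replicate-level call. Whether read ends were shifted for the transposase is not given in the sources used. An additional basal duct sample, which the study discarded, was not analysed here, and the deposited combined matrix, which holds the same values, was not used.

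Peaks were annotated with 41421 TSS positions of protein-coding transcripts (GENCODE vM21 basic, GRCm38). TEB and duct were compared in each lineage with the edgeR 4.0.16 exact test (R 4.3.3, TMM, peaks with a count, Benjamini-Hochberg FDR 0.05), and lineages by the quasi-likelihood interaction past filterByExpr. P-values measure the spread between mouse pools. SEs were taken between libraries (log2 CPM, prior count 2). CPM in the text is per library total. Scripts were tested on simulated data. Alternatives were the quasi-likelihood test, DESeq2 1.42.0 and its size factors, TMM factors from TSS peaks, library sizes alone, filters, replicate block, each library left out, and other limits of the rule.

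Named genes were, per basal list, up to 5 members with the highest basal CPM, the 8 with the largest ratio above the median level, the 6 highest, the 6 called with the smallest p per direction and comparison, 3 peaks on each side of the limit, and members in lists of other cells. The lists of all 20 gene groups and the 20 motifs were used as given in the report. Levels of peaks are not compared per length, since peaks differ in width.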

Additional observations from a re-analysis of the deposited data

Results flagged for a closer look

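At 6 promoters the difference between TEB and duct differed between basal and luminal cells by the interaction test, these being the 6 with the smallest p. The log2 differences of the basal from the luminal change were -2.28 at Adam12, -1.99 at Gm21149, -1.95 at Medag, -2.73 at Prima1, -2.14 at Speer4d and -1.42 at Vgll3, all past an FDR of 0.05 under each of 17 alternatives. All 6 were lower in basal TEB than in basal duct, although Gm21149, Medag, Prima1 and Speer4d missed the threshold for that contrast without basal duct replicate 1. With TMM factors from TSS peaks Gm21149, Prima1 and Speer4d missed it, as did Prima1 and Speer4d without basal duct replicate 3 and Prima1 with DESeq2 or without basal TEB replicate 3. Between luminal TEB and luminal duct the log2 difference of Vgll3 was 0.0 (adjusted p = 1.0), and none of the other 5 passed the test there. No group held more than 3 libraries, so single libraries could not be screened for standing apart within a group.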

How the results depend on the processing

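The size of the set followed its limits, with 2342 promoters at a ratio of 1.5 and 558 at a ratio of 3, and 1184 to 1335 with any one library left out. Other scalings, distances and CPM limits stayed within 1.5 times. For basal TEB against basal duct, calls in all (325), higher and lower were 154 (9 and 145) with DESeq2, 104 (73 and 31) under TMM from TSS peaks and 203 (22 and 181) with library sizes alone. With filterByExpr 19 were higher. Leaving out 1 library gave 10 to 397 in all, 0 to 16 higher and 10 to 386 lower. For luminal TEB against duct (7 in all), TMM factors from TSS peaks gave 12 (10 and 2), and the counts were 11 (7 lower) with filterByExpr, 5 higher with library sizes alone, and 2 to 8, 0 to 3 and 2 to 5 without 1 library. DESeq2 gave 0 in all, higher and lower, but set no adjusted p for 1245 of the 1248. For the interaction (127), they were 45 (all lower) with DESeq2, 76 (5 and 71) with its size factors, 45 (13 and 32) under TMM from TSS peaks and 5 higher with library sizes alone, and 36 to 201, 0 to 2 and 36 to 199 without 1 library. The cause was not tested.

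Replicate numbers are shared between groups, but deviations of libraries with the same number correlated by only 0.00748 to 0.0781 and were not taken as pairs. In luminal cells each library correlated best with its own number, which is a hint from the data alone. With a replicate block, luminal calls were 17 (7 and 10), basal calls 8 higher and 359 lower, and interaction calls 129. Of 20 motifs, 10 were more frequent in members than in all promoters, 8 in the TSS window and 6 over the whole peak, where SOX and TATA matches were less frequent. The distal basal-biased shares, 33.2% and 26.3%, fell to 31.2% and 24.5% under TMM from TSS peaks, a setting added after seeing the data, as was leaving out the repeated genes on chromosome 5, which kept each count within 1.5 times. The low counts per peak in basal TEB and luminal libraries limit single values.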
